A study of Homo sapiens with 16 samples.

Results

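Platelets carry adhesive proteins, growth factors and chemokines in storage granules, and 10 genes for such cargo were followed here: THBS1, VWF, MMRN1, SPARC, F13A1, PDGFA, PDGFB, PPBP, CLU and SRGN. The genes were taken by name from alpha-granule and secreted platelet proteins, with no threshold on measured values though with earlier results of these data known, and the estimated reads of all transcripts of a gene were summed in each library. They are 10 of the 35052 genes to which transcripts were assigned, and 9 of the 17559 genes that passed the filter on low counts. F13A1 fell under that filter. VWF, MMRN1 and PPBP passed it only through treated libraries, since each held at most 1 read in an untreated library. PDGFB, with 11 and 5 reads in the untreated libraries, also needed treated libraries to pass. No count over the tested members is therefore a count over all 10.

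The cells were K562, an established human leukaemia line with no genetic change made for the experiment (labelled WT). They were given 25 nM PMA, a phorbol ester that activates protein kinase C, to drive them towards a megakaryocyte-like state. RNA was taken from untreated cells (0 h), early in treatment at 0.5, 1.5 and 3 h, then at 6 h, and on the following days at 24, 48 and 72 h, with 2 libraries at each of the 8 time points. Longer treatments had their medium changed after 24 and 48 h. The labels do not say whether the 2 libraries of a time point came from separate cultures, so the p-values measure the spread between these libraries, which may be technical, and all of them come from a single cell line. K562 cells carry an erythroid programme, and the fetal globin gene HBG2 was the most abundant of 12 listed erythroid markers at every time point, at 3029 and 3268 TPM (transcripts scaled by length and library) in the untreated libraries.

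Megakaryocytes, the platelet precursors of the bone marrow, make most alpha-granule cargo themselves, sort it into granules and hand it on to the platelets they shed. On activation platelets release this cargo, which sticks them to collagen and to each other, recruits leukocytes and stimulates cells of the vessel wall. Adhesive glycoproteins such as thrombospondin, von Willebrand factor and multimerin act at the wound, the platelet-derived growth factors act on mesenchymal cells, and the proteoglycan serglycin helps to pack cargo in the granule.

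Library totals were 27285773 to 54056289 estimated reads, and 3 reads, the floor used here, corresponded to 0.0623 to 0.128 CPM. CPM is the read count scaled to a common library size with TMM factors and compares 1 gene between libraries, while TPM, which is divided by transcript length, is used to compare genes with each other. A gene is said to have risen or fallen where edgeR's quasi-likelihood F-test gave a Benjamini-Hochberg adjusted p under 0.05 over all 17559 genes of that contrast. Where values come in pairs, replicate 1 is given before replicate 2. The 7 contrasts with the untreated state share its 2 libraries and so are not independent of each other. A 2 against 2 permutation test cannot reach 0.05, so each call rests on a modelled spread. That spread combines the gene's own over all 16 libraries (8 residual degrees of freedom) with that of all genes (5.28 prior ones). The 0 h replicate 2 library stood apart in its gap between transcript length and effective length (199 nt, against 229 to 248 nt in the other replicate 2 libraries). Without it the counts of members called against 0 h, given next, were the same at every time. In bulk RNA, fewer cells with a transcript and less transcript per cell cannot be told apart.

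The cargo genes rose at different times and by very different amounts. Of the 9 tested members 0 had risen or fallen at 0.5 h (0 by edgeR, also at an unadjusted p under 0.05, and 0 by DESeq2), where 0.171% of all tested genes were called in either direction. At 1.5 h 1 member, PDGFA, was higher, as were 9.05% of all genes. At 3 h THBS1, VWF, CLU, SRGN, PDGFA and PDGFB were higher, which are 6 members beside 21.5% of all genes. PPBP joined them at 6 h, for 7 members beside 27.8% of all genes. With SPARC and MMRN1 all 9 tested members were higher at 24, 48 and 72 h, beside 31.7%, 30.2% and 31.7% of all genes. In the test of any difference over the 8 times the 9 members passed (edgeR adjusted p from 1.47e-14 for THBS1 to 0.00270 for PPBP), as did 82.9% of all genes. The members' median fitted log2 fold change at 72 h was 4.78, beside −0.03 over all genes. With bounds for VWF, MMRN1 and PPBP, which were at the floor at 0 h, it was 4.27, the bound of VWF itself. These genes passed the filter only through treated libraries and so could only be called higher against 0 h. PDGFB, with 11 and 5 reads at 0 h, also needed treated libraries to pass, so its rise is not free of that selection. The other tested members had values of 10.34 (THBS1), 9.44 (PDGFB), 4.78 (PDGFA), 2.98 (SPARC), 2.57 (CLU) and 1.13 (SRGN). Scaling to total counts in place of TMM moved the median of all genes down, by as far as −0.35 at 6 h, and left the direction of every member that was called against 0 h.

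**Figure D1:**
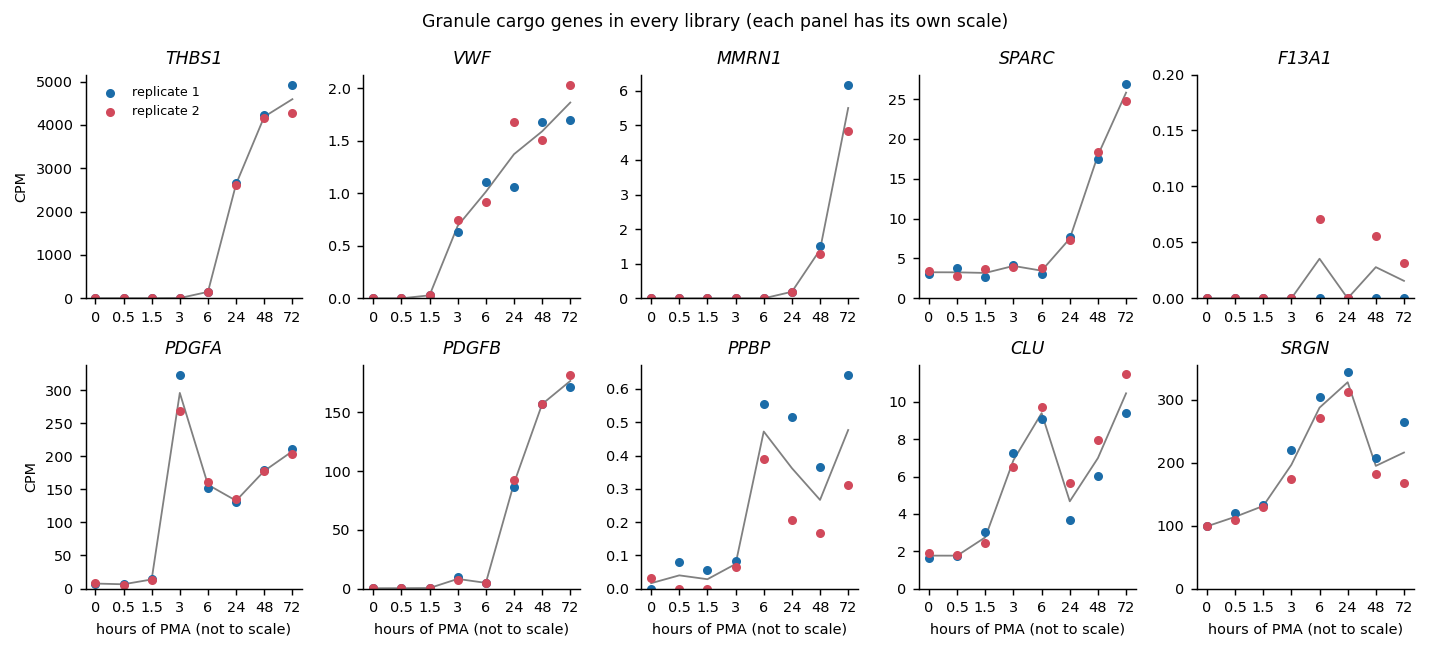
CPM (y axis, linear, a separate scale in each panel) of the 10 cargo genes in the 16 libraries against hours of PMA (x axis, evenly spaced, not to scale). Points are libraries, coloured by replicate, and the line joins the means of the 2 libraries. THBS1, SPARC, PDGFB and MMRN1 were highest at 72 h, PDGFA was highest at 3 h and SRGN at 24 h, and F13A1 stayed at 0.0708 CPM or less.

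THBS1 was the most abundant member after a day of PMA. It encodes thrombospondin-1, a large trimeric glycoprotein of the alpha granule that binds cells and matrix and can activate latent TGF-beta. The gene (ENSG00000137801) lies on chromosome 15 of GRCh38 at 39581079 to 39599466, plus strand. The 2 untreated libraries held 3.53 and 3.54 CPM, those of 0.5 h 4.28 and 3.70, those of 1.5 h 4.31 and 3.09, and those of 3 h 8.28 and 5.45. The 6 h libraries held 146 and 152 CPM, the 24 h libraries 2654 and 2618, the 48 h libraries 4228 and 4150, and the 72 h libraries 4916 and 4271. From 3 h on, both libraries of a time point lay above both untreated ones, and from 6 h on the gap was far wider than the spread between replicates. Both 0.5 h libraries also lay above the untreated ones, though THBS1 was not called there (adjusted p 0.641 by edgeR). The log2 fold change against 0 h was 0.96 at 3 h (adjusted p 0.00122 by edgeR, SE 0.19), 5.40 at 6 h (adjusted p 5.22e-11 by edgeR, SE 0.20) and 10.34 at 72 h (adjusted p 4.47e-13 by edgeR, SE 0.23).

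Most of that rise lay between 3 and 24 h. THBS1 rose by 4.43 on the log2 scale from 3 to 6 h (adjusted p 1.38e-09 by edgeR, SE 0.18) and by 4.14 from 6 to 24 h (adjusted p 6.82e-10 by edgeR, SE 0.17). The step from 24 to 48 h was 0.67 (adjusted p 0.00937 by edgeR), and it missed the threshold when any of the 4 libraries was left out (adjusted p 0.0548 to 0.0665). The step from 1.5 to 3 h, 0.89 with both libraries of each time, was 0.55 without 3 h replicate 1 (adjusted p 0.0566 by edgeR) and 0.67 without 1.5 h replicate 2 (adjusted p 0.0574 by edgeR). The mean at 24 h was 57.4% and that at 48 h 91.2% of the 72 h mean. In TPM the untreated mean was 1.09 ± 0.107 (SD, n = 2) and the 72 h mean 1230 ± 17.9, and the gene moved in rank among all genes from 13925 and 14018 to 90 and 96. At 72 h it took 0.465% of the reads of replicate 1 (95% Wilson interval 0.462 to 0.467%, counting error only). Among 7424 genes called at 72 h with a mean of at least 5 CPM, its rise ranked 42 and that of PDGFB 57.

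The reads were assigned almost entirely to the longest coding transcript of the gene (ENST00000260356, 7775 nt, 22 exons, 1170 codons), which held 98.7 and 98.1% of the THBS1 reads at 72 h. FSIP1, which overlaps THBS1 on the other strand, had at most 46 reads in any library. RefSeq places the start of THBS1 at the first base of the annotated gene. The 250 bases before it are shown because THBS1 became the most abundant member. The RefSeq promoter table held 6 of the 10 members, and VWF, CLU, SRGN and PDGFB have no entry. Both strands were searched for the letters GCGTGGGCG and GCGGGGGCG (the EGR family), GGGCGG (the SP family), TGANTCA (AP-1), AGATAA (for GATA factors) and TATAAA (the TATA box). Capitals mark matches, which are runs of letters and not shown binding sites, in GRCh38.p14 at chr15:39580829-39581078, plus strand:
THBS1 upstream: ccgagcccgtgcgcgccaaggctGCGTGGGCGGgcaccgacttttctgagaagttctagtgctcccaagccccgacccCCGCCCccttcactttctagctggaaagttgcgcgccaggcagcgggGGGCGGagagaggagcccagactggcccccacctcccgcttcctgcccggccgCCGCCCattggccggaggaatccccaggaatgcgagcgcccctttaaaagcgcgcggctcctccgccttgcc
The window holds 1 match to GCGTGGGCG, 227 to 219 bases before the start and overlapping a GGGCGG, and 4 matches to GGGCGG. Of 35116 RefSeq windows of the same length, 0.720% held GCGTGGGCG and 42.6% GGGCGG.

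Von Willebrand factor and multimerin 1 are the other large adhesive multimers of the granule, and their transcripts came up from no reads. VWF (ENSG00000110799, chromosome 12, 5948874 to 6124770, minus strand) encodes the factor that tethers platelets to collagen and carries coagulation factor VIII. It had 0 reads in all 4 libraries of 0 and 0.5 h and 1 read in each at 1.5 h. Both 3 h libraries held 23 reads (0.631 and 0.750 CPM), the 6 h libraries 26 each (1.11 and 0.920 CPM), those of 24 h 33 and 81 (1.07 and 1.68 CPM), those of 48 h 55 and 54 (1.68 and 1.51 CPM) and those of 72 h 61 and 65 (1.70 and 2.03 CPM). The treated libraries from 3 h on did not overlap the earlier ones. Against the floor of 3 reads in a 0 h library, VWF was at least 7.15-fold higher at 3 h (adjusted p 1.60e-05 by edgeR) and at least 19.3-fold higher at 72 h (adjusted p 4.01e-07 by edgeR). From 3 h on none of the later steps between neighbouring times passed the test. At 72 h 98.4 and 96.8% of its reads were assigned to the coding transcript VWF-201 (8838 nt, 52 exons). The pseudogene copy VWFP1 had at most 12 reads and did not follow this course (4 to 8 reads at 0 h, 3 to 7 at 72 h).

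MMRN1 had no reads before 24 h. It encodes multimerin 1, which binds factor V in the alpha granule (ENSG00000138722, chromosome 4, 89879532 to 89954629, plus strand). All 10 libraries from 0 to 6 h had 0 reads. Those of 24 h held 6 and 9 reads, those of 48 h 50 and 46, and those of 72 h 221 and 155 (6.16 and 4.84 CPM). Each time point from 24 h on lay above the one before without overlap. MMRN1 was at least 1.97-fold above the 0 h floor at 24 h (adjusted p 0.00157 by edgeR) and at least 57.0-fold at 72 h (adjusted p 9.08e-07 by edgeR). It was the single member that rose from 48 to 72 h, by 1.97 on the log2 scale (adjusted p 0.0144 by edgeR, SE 0.27), a step at which 1.47% of all genes were called. That call was lost without either 48 h library or without 72 h replicate 1 (edgeR adjusted p 0.117 to 0.217).

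SPARC and F13A1 are linked to matrix and clot stability. SPARC (ENSG00000113140, chromosome 5, 151661096 to 151687165, minus strand) encodes osteonectin, a collagen-binding glycoprotein. The 10 libraries from 0 to 6 h lay between 2.69 and 4.22 CPM, with the untreated ones at 3.10 and 3.44. The 24 h libraries held 7.68 and 7.30 CPM, those of 48 h 17.5 and 18.4, and those of 72 h 26.9 and 24.7. Every later library was above every earlier one from 24 h on. The log2 fold change against 0 h was 1.19 at 24 h (adjusted p 7.72e-05 by edgeR, SE 0.18) and 2.98 at 72 h (adjusted p 9.85e-09 by edgeR, SE 0.19). F13A1 (ENSG00000124491, chromosome 6, 6144085 to 6321013, minus strand), the A subunit of the clot-crosslinking factor XIII, was near the read floor throughout. It had 2 reads in 1 library of 6 h, 2 in 1 of 48 h, 1 in 1 of 72 h and 0 in the other 13, so any change was not detectable at this depth.

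PDGFA and PDGFB encode the A and B chains of platelet-derived growth factor, which pair as AA, AB or BB dimers and signal through the receptors PDGFRA and PDGFRB. PDGFA (ENSG00000197461, chromosome 7, 497258 to 520296, minus strand) was called higher at 1.5 h and reached its highest level at 3 h. Its untreated libraries held 6.75 and 8.34 CPM, those of 0.5 h 6.97 and 5.93, those of 1.5 h 15.1 and 12.4, and those of 3 h 323 and 269. Later the 6 h libraries held 153 and 161 CPM, those of 24 h 131 and 135, those of 48 h 179 and 177, and those of 72 h 211 and 204. Both 3 h libraries were above every library of the other times, and the 24 h libraries were the lowest after 3 h. The log2 fold change against 0 h was 0.87 at 1.5 h (adjusted p 0.00100 by edgeR, SE 0.14), 5.29 at 3 h (adjusted p 1.37e-11 by edgeR, SE 0.15) and 4.78 at 72 h (adjusted p 5.35e-12 by edgeR, SE 0.14).

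Between neighbouring times PDGFA rose by 1.09 from 0.5 to 1.5 h (adjusted p 2.37e-04 by edgeR, SE 0.14) and by 4.43 from 1.5 to 3 h (adjusted p 1.97e-10 by edgeR, SE 0.14). It then fell by 0.91 on the log2 scale from 3 to 6 h (adjusted p 3.32e-05 by edgeR, SE 0.12). A rise of 0.42 from 24 to 48 h passed the test (adjusted p 0.0297 by edgeR) and was lost when any of the 4 libraries was left out (adjusted p up to 0.147) and with counts from TPM (adjusted p 0.111). The difference from 6 to 24 h, −0.24, did not pass, but it was called as a fall of 0.25 to 0.38 with GC trends removed, with and without the replicate block, with coding transcripts only and with only the compared times (adjusted p 0.00217 to 0.00933 by edgeR). At the step from 0.5 to 1.5 h PDGFA was the 1 member called, beside 5.77% of all genes in either direction.

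PDGFB (ENSG00000100311, chromosome 22, 39223359 to 39244751, minus strand) rose in separate early and late steps. The untreated libraries held 11 and 5 reads (0.338 and 0.161 CPM), and the 0.5 and 1.5 h libraries lay between 0.264 and 0.532 CPM. The 3 h libraries held 9.43 and 6.95 CPM and those of 6 h 4.78 and 4.85. The 24 h libraries held 86.5 and 92.8 CPM, those of 48 h 157 and 157, and those of 72 h 172 and 181. The 3 h libraries stood above those of 6 h, and both were well below every library of 24 h or later. PDGFB rose by 4.24 from 1.5 to 3 h (adjusted p 1.21e-08 by edgeR, SE 0.23), fell by 0.77 from 3 to 6 h (adjusted p 0.00158 by edgeR, SE 0.16) and rose by 4.22 from 6 to 24 h (adjusted p 3.55e-10 by edgeR, SE 0.16). The fall from 3 to 6 h was at an adjusted p of 0.0508 with counts made from TPM. At 72 h the log2 fold change against 0 h was 9.44 (adjusted p 7.47e-13 by edgeR, SE 0.23).

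The balance of the A and B chain transcripts shifted between 6 and 24 h. Per length, PDGFA was 31.8 and 93.6 times PDGFB in TPM in the untreated libraries, 46.9 and 60.7 times at 3 h, and 37.5 and 43.1 times at 6 h. From 24 h it was far smaller, at 2.16 and 2.14, then 1.57 and 1.62 at 48 h and finally 1.66 and 1.49. The libraries of 24 h or later did not overlap those of the first 6 h, among which the ratio was never under 12.4. From 0 to 1.5 h PDGFB held 5 to 19 reads in a library, so the ratios there are imprecise. The 12.4 is that of 0.5 h replicate 2, with 13 PDGFB reads. No test was made on the ratio. At 72 h PDGFA stood at 159 ± 0.137 TPM and PDGFB at 101 ± 7.69 TPM (SD, n = 2).

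**Figure D2:**
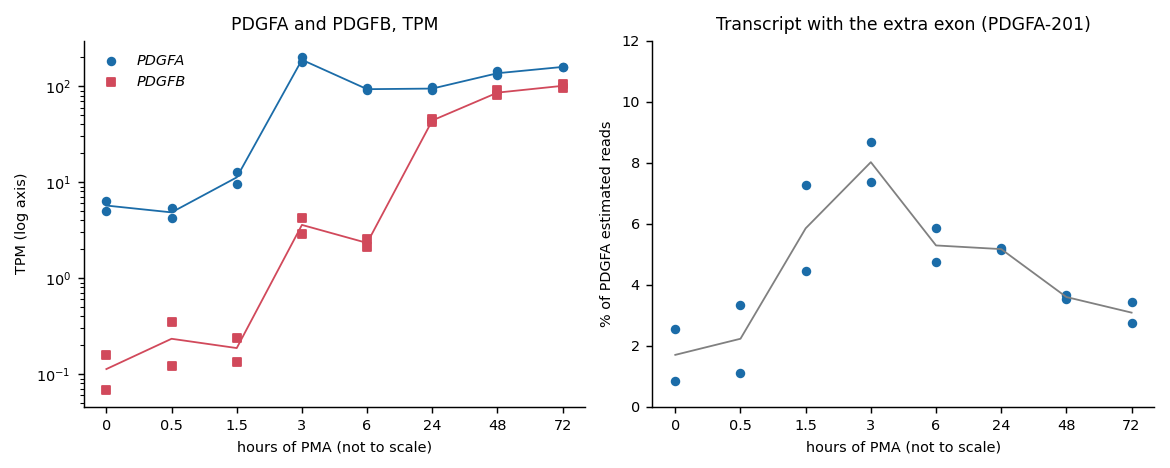
Left, TPM of PDGFA and PDGFB (y axis, log scale) in the 16 libraries against hours of PMA (evenly spaced, not to scale). Right, the percentage of PDGFA estimated reads assigned to PDGFA-201, the transcript with the additional exon; points are libraries and lines join means of 2. PDGFA is at least 12.4 times PDGFB through 6 h and at most 2.16 times from 24 h, and the share of PDGFA-201 is highest at 3 h.

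PDGFA is made in a short and a long form, which differ by an exon near the end of the coding region. The long form ends in a basic stretch that holds the growth factor at the cell surface and matrix, while the short form is freely secreted. In the annotation PDGFA-203 (6 exons, 196 codons) is the short form and PDGFA-201 (7 exons, 211 codons) the long form. The additional exon, exon 6, spans 69 bases at chr7:500431-500499 on the minus strand of GRCh38. Its 53 coding bases, at chr7:500447-500499, are absent from PDGFA-203, the only transcript compared with PDGFA-201. They are shown for that reason, in lower case as no part was singled out:
PDGFA long-form exon 6, coding part: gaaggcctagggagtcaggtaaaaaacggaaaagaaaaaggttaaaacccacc
The short form held most of the reads at every time, with 89.1 and 88.5% at 3 h and 95.1 and 94.05% at 72 h. The long form held 0.833 and 2.56% of the gene's reads in the untreated libraries, 7.36 and 8.67% in those of 3 h, 5.13 and 5.19% in those of 24 h, and 2.74 and 3.42% in those of 72 h. Both 3 h shares of all PDGFA reads were above those of every other time. The next highest was 7.26% in 1.5 h replicate 2, only narrowly lower, while 1.5 h replicate 1 held 4.44%, below both 24 h libraries. As a share of TPM, which allows for the shorter length of PDGFA-201, the means were 14.0% at 3 h and 5.62% at 72 h. The retained-intron transcript PDGFA-206 took 19.0 and 15.3% of PDGFA reads at 1.5 h and 0.993 to 3.23% in every other library. This lowered the long-form share at 1.5 h. Relative to the short form alone, the 1.5 and 3 h libraries overlapped. There were 30.2 long-form and 313 short-form reads in 1.5 h replicate 2, against 867 and 10492 in 3 h replicate 1. Shares come from the estimator that splits reads among overlapping transcripts, and no test was made on them.

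RefSeq lists 4 starts for PDGFA. The start nearest to that of PDGFA-203 in GENCODE (519409) is 519846, and of its 250 upstream bases the 113 outside annotated exons are shown, since PDGFA was the 1 member called at 1.5 h with the settings used here (CLU and SRGN were also called then under some alternatives). The window is chr7:519847-519959 in GRCh38.p14, minus strand, and capitals again mark matches to the searched letters:
PDGFA upstream: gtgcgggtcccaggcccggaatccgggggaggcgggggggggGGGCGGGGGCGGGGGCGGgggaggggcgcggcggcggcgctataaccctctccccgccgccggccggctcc
It holds 2 overlapping matches to GCGGGGGCG, which 4.72% of RefSeq windows of 250 bases hold, and 3 to GGGCGG that overlap them. Of the other PDGFA windows, that of the start at 520226 also held 2 matches to GCGGGGGCG. Those of the starts at 518329 and 520700 held matches to GGGCGG alone. In the same search of the upstream windows of other members, PPBP held 1 AGATAA (217 to 212 bases before its start, in 9.17% of all windows) and 1 TATAAA (31 to 26 bases before it, in 10.7%), and MMRN1 held 1 GGGCGG. No member's window held TGANTCA (6.57% of all windows). A match is a description of the letters, and a window without a match says nothing of the factor.

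PPBP, the platelet basic protein that is cleaved to the neutrophil-attracting chemokine CXCL7, stayed near the read floor. The gene (ENSG00000163736) lies on chromosome 4 at 73987038 to 73988197, minus strand. The 8 libraries from 0 to 3 h held 0 to 3 reads. Those of 6 h held 13 and 11, those of 24 h 16 and 10, those of 48 h 12 and 6, and those of 72 h 23 and 10. All libraries from 6 h on were above all earlier ones, and the replicates were farthest apart at 72 h. PPBP was at least 4.89-fold above the 0 h floor at 6 h (adjusted p 0.00359 by edgeR) and at least 4.94-fold at 72 h (adjusted p 0.00286 by edgeR). Its call at 24 h was lost without 0 h replicate 1 (adjusted p 0.0607 by edgeR), and that at 48 h without 0 h replicate 1 or 48 h replicate 1 (edgeR adjusted p 0.110 and 0.111). The call from 3 to 6 h was lost without any of its 4 libraries (adjusted p 0.0546 to 0.122). The pseudogene PPBPP2 had at most 7 reads, with 0 at 72 h.

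CLU encodes clusterin, a secreted chaperone that binds misfolded proteins and complement. The gene (ENSG00000120885, chromosome 8, 27596917 to 27615031, minus strand) rose early, fell from 6 to 24 h and had its highest mean at 72 h. Untreated libraries held 1.63 and 1.90 CPM, those of 0.5 h 1.72 and 1.81, those of 1.5 h 3.05 and 2.44, those of 3 h 7.24 and 6.52, and those of 6 h 9.09 and 9.70. At 24 h the values were 3.68 and 5.67 CPM, at 48 h 6.00 and 7.98, and at 72 h 9.42 and 11.5. The 24 h libraries were below those of 3 and 6 h but above those of 0 to 1.5 h. The log2 fold change against 0 h was 1.96 at 3 h (adjusted p 1.39e-05 by edgeR, SE 0.23) and 2.41 at 6 h (adjusted p 8.39e-07 by edgeR, SE 0.23), it fell by 0.997 from 6 to 24 h (adjusted p 0.00141 by edgeR, SE 0.21), and the 72 h value against 0 h was 2.57 (adjusted p 4.56e-07 by edgeR, SE 0.23).

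The CLU reads moved between transcripts over the course. In the untreated libraries the retained-intron transcript CLU-211 (2807 nt) held 93.1 and 100% of the CLU reads, and the 14 coding transcripts together held 0.112 CPM in 1 library and 0 in the other. Coding transcripts held 0.871 and 0.439 CPM at 1.5 h, 3.76 and 2.65 at 3 h, then 5.54 and 6.39 at 6 h. The 24 h libraries held 2.12 and 4.03 CPM of them and the 72 h libraries 6.62 and 7.25. From 1.5 h on all libraries were above the untreated ones, and the coding share was 70.3 and 63.1% at 72 h. Retained-intron transcripts went from 1.51 and 1.90 CPM at 0 h to 2.79 and 4.24 at 72 h, a smaller gain than that of the coding ones. Counting coding transcripts only, a choice made after seeing the data, CLU was higher at 1.5 h by 3.32 on the log2 scale (adjusted p 0.0146 by edgeR, SE 0.77), against 0.64 (adjusted p 0.0822) with all transcripts. With all transcripts it was also called at 1.5 h with no low-count filter (0.66, adjusted p 0.0490 by edgeR), with counts from TPM (1.48, 0.0207), with GC trends removed (0.77, 0.0333) and with GC trends removed and the replicate block (0.78, 0.0238). The log2 value at 72 h was 2.57 with all transcripts and 6.65 with coding transcripts only. The log2 ratio of mean TPM between 72 and 0 h was 4.43 and the 303-nt coding transcript CLU-204 took 56.7 and 47.3% of CLU TPM at 72 h.

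SPARC kept a large retained-intron share instead. SPARC-202 (1598 nt) held 56.0 and 63.6% of its reads at 0 h and 61.9 and 53.2% at 72 h. Coding transcripts of SPARC went from 1.36 and 1.04 CPM to 10.1 and 10.8 CPM between these times, and retained-intron transcripts from 1.73 and 2.41 to 16.8 and 13.9 CPM. At 3 h the coding class held 1.81 and 2.39 CPM and the retained-intron class 2.41 and 1.53, and with coding transcripts only SPARC was higher than at 0 h by 0.78 (adjusted p 0.0298 by edgeR). Both classes were higher at 72 h than at 0 h without overlap, and the gene-level value of SPARC is therefore not a value of its coding transcript alone. Retained-intron transcripts of THBS1 held 1.08 and 1.13% of its reads at 72 h and a mean of 18.3% of its TPM.

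**Figure D3:**
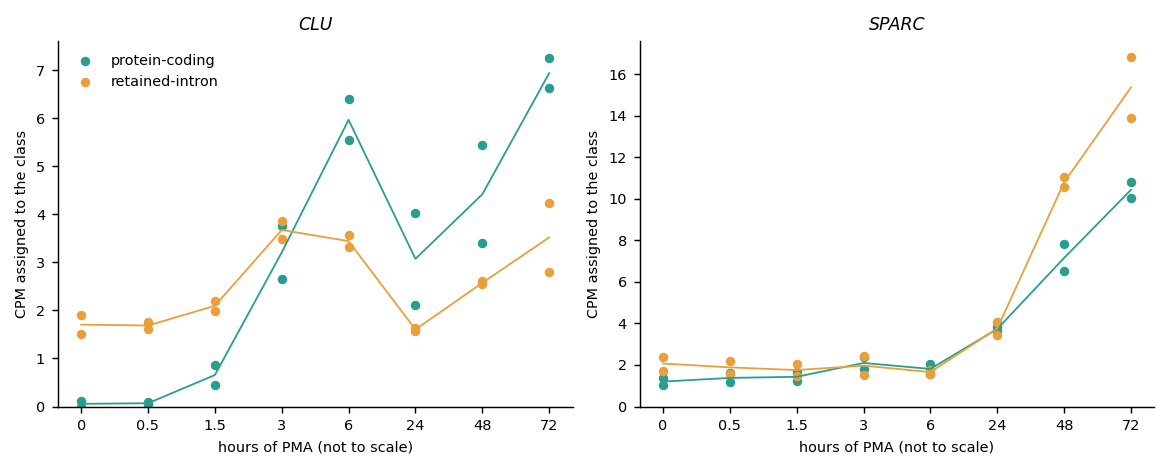
CPM assigned to protein-coding and to retained-intron transcripts (y axis, linear) of CLU (left) and SPARC (right) in the 16 libraries against hours of PMA (evenly spaced, not to scale); points are libraries and lines join means of 2. CLU coding transcripts start at 0 and 0.112 CPM and pass the retained-intron class at 6 h, while in SPARC both classes are higher at 72 h than at 0 h.

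SRGN had the highest untreated level per length of the 10 genes and the smallest fold change of the 9 tested at 72 h. It encodes serglycin, the proteoglycan core protein whose sulfated chains hold cargo in secretory granules of blood cells (ENSG00000122862, chromosome 10, 69088106 to 69104811, plus strand). Its untreated libraries held 98.7 and 99.0 CPM, those of 0.5 h 119 and 108, those of 1.5 h 132 and 130, those of 3 h 219 and 174, and those of 6 h 304 and 270. At 24 h the values were 343 and 312 CPM, at 48 h 208 and 182, and at 72 h 265 and 167. Every treated library was above both untreated ones, the 24 h libraries were the highest, and the 72 h replicates differed more than those of any other time. The log2 fold change against 0 h was 0.99 at 3 h (adjusted p 4.03e-04 by edgeR, SE 0.17), 1.73 at 24 h (adjusted p 1.67e-06 by edgeR, SE 0.18) and 1.13 at 72 h (adjusted p 7.57e-05 by edgeR, SE 0.17). The change from 24 to 48 h was −0.75 (adjusted p 0.00979 by edgeR, SE 0.17), which missed the threshold without either 24 h library or 48 h replicate 2 (adjusted p 0.0534 to 0.101). The steps from 1.5 to 3 h (0.58, edgeR adjusted p 0.0229) and from 3 to 6 h (0.55, edgeR adjusted p 0.0201) also depended on single libraries. The former was lost without either 1.5 h library or 3 h replicate 1 (adjusted p 0.0976 to 0.190) and when scaled to total counts (0.0850), and the latter without 3 h replicate 2 or 6 h replicate 1 (adjusted p 0.119 to 0.162).

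Between neighbouring times the members moved in different directions. From 1.5 to 3 h the 6 members called all rose (25.1% of all genes called in either direction). From 3 to 6 h THBS1, PPBP and SRGN rose while PDGFA and PDGFB fell (41.2% of all genes), and from 6 to 24 h THBS1, SPARC, PDGFB and MMRN1 rose while CLU fell (56.6%). From 24 to 48 h THBS1, SPARC, PDGFA, PDGFB and MMRN1 rose and SRGN fell (15.0%). The members' shares that were called stood above these backgrounds at the steps from 1.5 to 3 h and 24 to 48 h, and near them from 3 to 6 h and 6 to 24 h.

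**Figure D4:**
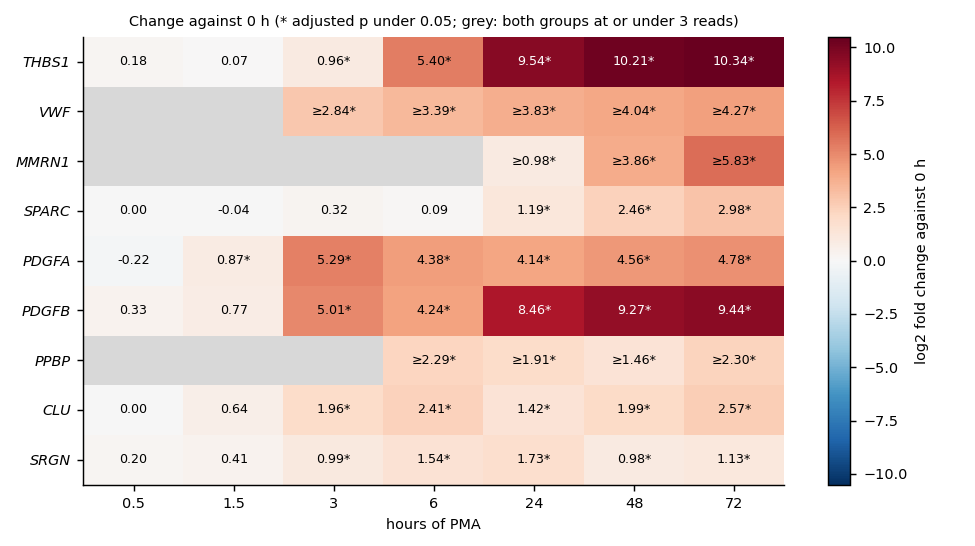
Log2 fold change (colour and number) of the 9 tested cargo genes (rows) against 0 h at each time of PMA (columns); asterisks mark an edgeR adjusted p under 0.05, numbers after a ≥ sign are bounds against the 3-read floor, and grey cells have both groups at or under it. THBS1 and PDGFB reach 10.34 and 9.44 at 72 h, and SRGN stays at or below 1.73.

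Per length the order of the members changed under PMA. In untreated cells SRGN stood at 145 ± 10.3 TPM (SD, n = 2), PDGFA at 5.71 ± 0.987, SPARC at 3.97 ± 0.657, THBS1 at 1.09 ± 0.107, CLU at 1.00 ± 0.0300 and PDGFB at 0.113 ± 0.0629. THBS1 and CLU overlapped there, and the other neighbours did not. At 72 h THBS1 stood first, followed by SRGN at 331 ± 100 TPM, PDGFA, PDGFB, SPARC at 35.3 ± 0.702 TPM, CLU at 21.6 ± 8.42, MMRN1 at 1.94 ± 0.390, PPBP at 0.665 ± 0.319 and VWF at 0.520 ± 0.190. PPBP and VWF overlapped at 72 h, and the other neighbours did not. Thrombospondin transcripts thus went from below to above those of serglycin between 6 h (38.0 ± 0.101 against 337 ± 53.1 TPM) and 24 h (654 ± 63.7 against 454 ± 65.0 TPM).

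The 5 genes whose course was most like that of THBS1 were GZMB, P4HA2, SIPA1L1, TFPI2 and TRIO, by Pearson's r of log2 (CPM + 1) over the 16 libraries, among the 7368 other genes with a symbol, a mean of at least 5 CPM and a call at 72 h. GZMB, the cytotoxic granule protease granzyme B, had r = 0.999 and stood at 0.0614 ± 0.0868 CPM (SD, n = 2) before treatment and reached 348 ± 13.8 at 72 h. The others were P4HA2, a collagen prolyl hydroxylase subunit (r = 0.998), SIPA1L1, a regulator of Rap GTPases (0.997), TFPI2, a matrix-associated protease inhibitor (0.997), and TRIO, a guanine nucleotide exchange factor (0.997). The points share libraries and time points, so r is a description. It also takes no account of the size of a change. Between 0 and 72 h mean CPM went from 21.6 to 188 for P4HA2 and from 29.5 to 165 for SIPA1L1. It went from 0.392 to 697 for TFPI2 and from 3.51 to 166 for TRIO. Among members, r with THBS1 was 0.95 for PDGFB and 0.92 for VWF, and between 0.68 and 0.87 for the other tested members.

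Further granule cargo genes moved both up and down. Of 30 genes on the list of further alpha-granule proteins 21 were tested, and at 72 h 13 were higher, 4 were lower and 4 did not pass (median log2 0.82). Over all genes tested at 72 h, the background for this list and the 3 that follow, 31.7% were higher, 26.9% were lower and the median was −0.03. TIMP1, a metalloproteinase inhibitor and the most abundant of them, went from 109 ± 39.8 CPM (SD, n = 2) to 9477 ± 1214, a log2 fold change of 6.44 (adjusted p 9.27e-11 by edgeR, SE 0.26). SERPINA1, which encodes alpha-1-antitrypsin, was at least 114-fold above the floor at 72 h (adjusted p 7.75e-07 by edgeR), and IGFBP3, a carrier of insulin-like growth factors, at least 5.51-fold (adjusted p 3.96e-04 by edgeR). The growth factor IGF1 and GAS6, a ligand of TAM receptors, fell by 1.98 and 2.91 (edgeR adjusted p 1.29e-08 and 1.01e-08). Platelet factor 4 (PF4), the abundant chemokine of human platelets, had at most 1 read in any library, and the 8 other untested genes had at most 9 (FGG, a fibrinogen chain).

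Receptors and binding partners of the members were also mixed. Of 18 listed 16 were tested, with 8 higher and 3 lower at 72 h, beside 31.7% and 26.9% of all genes (median log2 1.13). ITGB3, the beta chain of the platelet fibrinogen receptor, which also binds thrombospondin-1, went from 1.52 ± 0.327 to 1092 ± 118 CPM (log2 difference 9.48, adjusted p 7.13e-14 by edgeR, SE 0.16). CD44, a serglycin-binding receptor and the most abundant by TPM, went from 14.8 ± 0.608 to 4629 ± 274 CPM (8.29, adjusted p 7.13e-14 by edgeR, SE 0.14). PDGFRB, the receptor for PDGF-B, was at least 178-fold above the 0 h floor (adjusted p 1.01e-09 by edgeR). The clusterin receptor LRP8 fell by 0.69 (adjusted p 1.51e-04 by edgeR), as did STAB1, a scavenger receptor for SPARC, by 1.61 (adjusted p 6.57e-05 by edgeR). The von Willebrand factor receptor genes GP1BA and GP9 had at most 5 and 1 reads.

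Of 18 processing and assembly enzymes 17 were tested, and 10 were higher and 2 lower at 72 h, beside 31.7% and 26.9% of all genes (median log2 0.41, beside −0.03). The largest rises were of the xylosyltransferases that start proteoglycan chains, XYLT1 (at least 4.94-fold, edgeR adjusted p 0.00434) and XYLT2 (log2 1.52, edgeR adjusted p 1.02e-07). P4HB, a disulfide isomerase and the most abundant of them, was at 610 ± 80.3 CPM at 0 h and 503 ± 24.1 at 72 h and did not pass (adjusted p 0.0549 by edgeR). It passed as a fall when scaled to total counts and when 0 h replicate 1 was left out. ADAMTS1 and PCSK6, both proteases, fell by 0.81 and 0.41 (edgeR adjusted p 0.0279 and 0.00127). The ADAMTS1 call was lost without 0 h replicate 2 or either 72 h library (adjusted p 0.0594 to 0.131), by DESeq2 (adjusted p 0.0549) and with counts from TPM, where its log2 value was −0.29 (adjusted p 0.498 by edgeR). The PCSK6 call was lost when only the compared times were fitted (adjusted p 0.0709 by edgeR).

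Of 23 family relatives of the members 18 were tested, with 9 higher and 2 lower at 72 h, beside 31.7% and 26.9% of all genes (median log2 0.57). THBS2 and SPOCK1, relatives of THBS1 and SPARC, were at least 10.7-fold and at least 43.9-fold above the 0 h floor (edgeR adjusted p 6.98e-05 and 1.30e-07), at 1.03 ± 1.37e-04 and 4.24 ± 0.866 CPM. The chemokines CXCL2 and CXCL3, relatives of PPBP, fell by 2.29 and 1.45 (edgeR adjusted p 3.69e-09 and 1.00e-07). CXCL8, the most abundant relative by mean TPM, rose by 1.11 (adjusted p 2.90e-05 by edgeR, SE 0.15). The other PDGF genes, PDGFC and PDGFD, had at most 7 reads each.

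**Figure D5:**
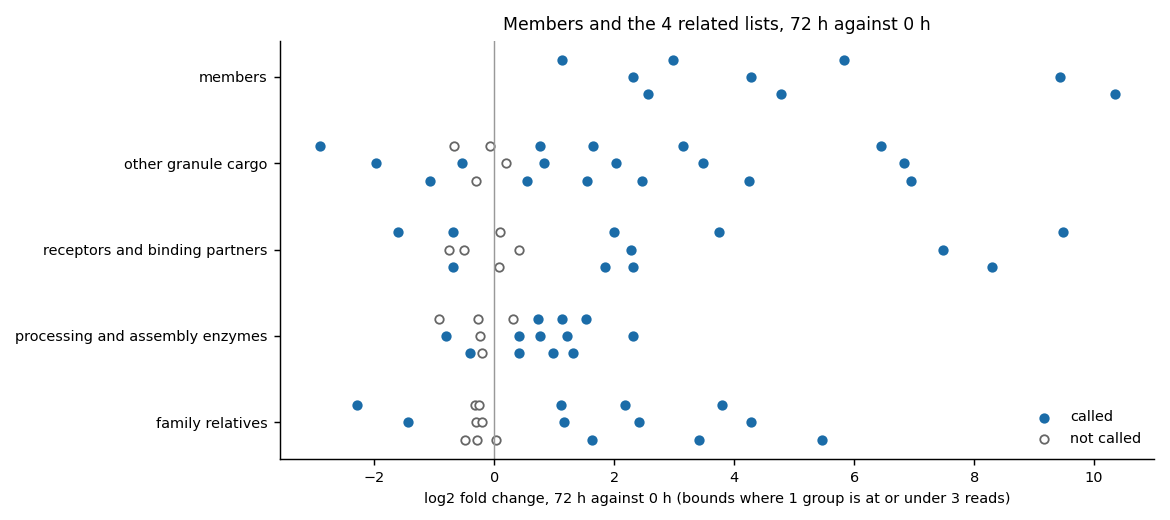
Log2 fold change at 72 h against 0 h (x axis) of the tested cargo genes and of the genes of the 4 related lists (rows, points spread vertically for legibility); filled points passed the edgeR test and open points did not, and bounds stand for genes with 1 group at or under 3 reads. The 9 cargo genes lie between 1.13 and 10.34, while each related list has genes on both sides of 0.

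Marker genes of cell types that make these proteins also moved between 0 and 72 h. Over all genes tested, 31.7% were higher and 26.9% were lower at 72 h. Summed over the 10 listed endothelial markers, TPM was 47.3 to 55.3 at 0 h and 276 to 323 at 72 h (8 of 9 tested higher, led by TIE1, with KDR at 7 reads or fewer). Fibroblast markers summed to 41.8 to 46.6 and 523 to 529 TPM (5 of 6 tested higher, led by COL6A3, with LUM at 0 reads and FAP and POSTN at 1 or fewer). Monocyte and macrophage markers summed to 189 to 204 and 300 to 359 TPM (2 of 8 tested higher and 2 lower, led at 72 h by CD68, with MARCO at 6 reads or fewer). These monocyte counts were near the shares of all genes. Megakaryocyte markers summed to 174 to 194 and 564 to 601 TPM (3 of 5 tested higher and 1 lower, led at 72 h by ITGB3, with PF4, GP9 and GP1BA at 5 reads or fewer), and erythroid markers to 5238 to 5633 and 3543 to 4779 TPM (1 of 12 higher, 6 lower). The part of any of these cell programmes in the cargo genes was not tested.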

How the data were processed

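The 16 libraries, made from total RNA after rRNA depletion, held 27285773 to 54056289 estimated reads each. Per the file headers, the authors deposited for each of 177456 transcripts an expected count of reads, not normalized, and TPM, which is relative to length and to all transcripts. The submitters' processing notes name Salmon and Trim Galore 0.4.3 among their tools and hg19 and hg38 as builds. The Salmon version, its index and the strand setting are not given in the sources used here.

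Transcripts were matched by identifier to GENCODE 29 (GRCh38). The 94.1% that matched were summed per gene and rounded, and unmatched ones (3.01 to 3.75% of reads) were not used. edgeR 4.0.16 in R 4.3.3 fitted all 8 time points together after filterByExpr, with TMM factors of 0.854 to 1.139, a biological coefficient of variation of 0.123, and 8 residual and 5.28 prior degrees of freedom. The SE is the unshrunken log2 fold change divided by the root of its F. The script was tested on simulated data. For a group with 3 reads or fewer in each library, the bound divides the other group's mean CPM by the highest CPM that 3 reads give in the low group. PCR reads are not independent molecules, so intervals and floors cover counting error alone.

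The members and lists were chosen with earlier results of these data known. Also named are the 5 genes most like THBS1, taken from genes called at 72 h that average 5 CPM or more, and for each related list 2 called genes that rose most, 2 that fell most and the most abundant by TPM. Rises and falls were ranked by fitted log2 fold change and not by bounds. A gene at the floor at 0 h could thus be named ahead of one with a larger measured rise. Any further gene named was picked with its values in view. Other settings tried were DESeq2 1.42.0, scaling to total counts, looser and stricter filters, counts from TPM, only the compared times, a replicate block, GC trends removed, each library left out and, chosen after seeing the data, coding transcripts only.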

Additional observations from a re-analysis of the deposited data

How the results depend on the processing

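The members' fold changes called in the main fit, and a few uncalled ones picked by hand, were followed through the alternatives. Of the recomputed values, 752 of 769 kept their direction and side of the threshold under other settings, and 263 of 292 when 1 library was left out. The remaining uncalled contrasts were not followed gene by gene. The count of members called did not move by more than 1.5 times at 0.5 and 3 h. At 1.5 h the count of 1 became 3 with no low-count filter and 2 with counts from TPM, the replicate block, GC trends removed, block and GC together, or coding transcripts. A minimum of 10 counts in every library, which drops VWF, MMRN1, PPBP and PDGFB, gave 4 members at 6 h, 5 at each of 24, 48 and 72 h, 3 at the 3 to 6 h step, 3 at the 6 to 24 h step and 0 at the 48 to 72 h step, with 6 family relatives. At the 0.5 to 1.5 h step it was 2 with counts from TPM, coding transcripts or only the compared times, and at the 48 to 72 h step 0 with counts from TPM. Leaving out 1 library gave 8 to 9 members at 24 h and at 48 h, 4 to 6 at the 1.5 to 3 h step, 3 to 4 at the next, 3 to 4 at 24 to 48 h, and 0 to 1 at 48 to 72 h. The uncalled SRGN difference between 72 and 48 h ran from −0.22 without 72 h replicate 1, a reversal, to 0.44 without replicate 2, and the cause was not tested. By Spearman rank correlation 1 of the 5 genes most like THBS1 was shared.

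The main fit does not treat same-numbered libraries as pairs. Correlations of their differences between time points were −0.30 to 0.60, with 24 of 28 over 0.1. Same-numbered libraries thus shared part of their differences, which the main fit does not model, and a replicate block was also fitted. The replicate block also called SRGN at 1.5 h (adjusted p 0.0433 by edgeR) and changed no other call among the members' fold changes that were followed. Counts over all genes moved more than the members' counts. The 30 genes at 0.5 h became 1538 with no filter, 123 by DESeq2, 12 with the compared times alone, 55 with GC removed, 67 with block and GC, and 20 to 3585 without 1 library. The 3003 genes at 1.5 h became 1969 with coding transcripts, 1098 with the compared times alone and 1006 to 5008 without 1 library, and the 7370 at 3 h became 4823 with the compared times alone. Between 0.5 and 1.5 h 1014 became 1695 with GC removed, 2054 with block and GC, 637 with coding transcripts, 2473 with the compared times alone and 427 to 616 without 1 library. Between 1.5 and 3 h 4408 became 2817 without 1.5 h replicate 2. Between 24 and 48 h 2633 became 4542 with block and GC, 4444 with the compared times alone and 1115 to 1470 without 1 library. Between 48 and 72 h 258 became 659 with no filter, 77 with counts from TPM, 624 with GC removed, 888 with block and GC, 142 with coding transcripts, 87 with the compared times alone and 37 to 177 without 1 library. Scaled to total counts, the share of calls against 0 h that were higher was 31.9, 27.4, 30.3, 38.7 and 44.3% for the times 1.5, 3, 6, 24 and 48 h, against 52.9, 51.2, 48.6, 54.4 and 55.7% with TMM. For the steps that end at 1.5, 3, 24 and 48 h it was 57.95, 29.01, 65.5 and 72.9%, against 71.1, 51.7, 54.4 and 59.2% with TMM. Changes in F13A1 and small ones in PPBP and VWF were not detectable at this depth.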
